A study of Homo sapiens with 11 samples.

Results

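The cathepsins are the main proteinases of the lysosome, and 10 genes of this family (CTSA, CTSB, CTSC, CTSD, CTSF, CTSH, CTSK, CTSL, CTSS and CTSZ) were chosen by symbol from the 25590 genes counted in PC-3 xenograft tumours. All 10 had reads in every tumour and all passed the filter on low counts. The cell line PC-3 derives from a human prostate carcinoma. Its cells were injected subcutaneously into male athymic nude mice (Crl:NU-Foxn1nu), 8 weeks of age, which lack T cells but keep macrophages, natural killer cells and B cells. After 7 days of growth, mice received intraperitoneal injections on alternate days until day 31, either of A2M*, the methylamine-transformed form of the human proteinase inhibitor alpha2-macroglobulin, at 5.6 mg per 20 g body weight, or of PBS as control. RNA was sequenced from 5 tumours of the PBS group (PC3_tumor_123 to PC3_tumor_127) and 6 tumours of the A2M* group (PC3_tumor_128 to PC3_tumor_132 and PC3_tumor_112), and values of single tumours are given in this order. All tumours came from the same cell line, each tumour gave 1 library, and the reads analysed are those that the authors had sorted as human.

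Most cathepsins are cysteine proteinases, made as inactive precursors, carried to the lysosome on mannose-6-phosphate receptors and activated there at low pH by removal of their propeptide. CTSD is an aspartic proteinase and CTSA a serine carboxypeptidase that also protects other lysosomal enzymes in a complex. Cystatins hold the cysteine cathepsins in check, while cathepsins released outside the cell can degrade matrix proteins. Alpha2-macroglobulin in its native form is itself a trap for secreted proteinases of all classes. The mice received A2M*, the transformed form, and trapping of cathepsins by A2M* was not tested. The comparison of both groups asks whether the cathepsin genes of the tumour cells differed after treatment with A2M*.

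The cathepsin levels spanned a wide range, and by deposited RPKM CTSD and CTSZ were above all other members in every tumour. Levels between genes are given as RPKM (reads per kilobase of exon and 1e+06 reads), the authors' own values, as mean ± SD over all 11 tumours. CTSD, the major aspartic proteinase of lysosomes, had the highest mean, 231 ± 36.0 RPKM, with single tumours between 178.8 and 269.4. CTSZ, a carboxypeptidase of the cysteine class also known as cathepsin X, followed with 198.3 RPKM on average and a range of 179.2 to 226.6. CTSD was higher than CTSZ in 10 of 11 tumours, but their ranges overlapped. CTSA lay below both, at 106.8 RPKM and no lower than 91.88 in any tumour, and its range met neither neighbour's. CTSC, the dipeptidyl peptidase that activates serine proteinases of immune cells, averaged 61.94 RPKM and CTSB, an endopeptidase that also removes dipeptides, 54.07. These ranges overlapped, with CTSC above CTSB in 9 of 11 tumours. CTSL, a lysosomal endopeptidase, averaged 30.23 RPKM and was apart from both of its neighbours in the order.

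The remaining members were lower than these. CTSF had a mean of 14.25 RPKM, CTSH, an aminopeptidase, 8.916 and CTSK, known as the collagenase of osteoclasts, 6.092. Each of these was above the next in all 11 tumours, although the ranges of CTSF and CTSH and those of CTSH and CTSK overlapped. CTSS, known for processing the invariant chain in antigen-presenting cells, was lowest, at 1.833 RPKM, and its range of 1.302 to 2.622 was apart from that of CTSK. Among the 22078 genes with a count, mean RPKM placed CTSD at the percentile 99.0, CTSZ at 98.9, CTSA at 97.6 and CTSS at 45.4. CTSF was at 76.5, CTSH at 67.9 and CTSK at 61.2. CTSD and CTSZ held 60.2% of the summed deposited RPKM of the 10 genes, and the 5 highest genes held 91.4%.

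**Figure D1:**
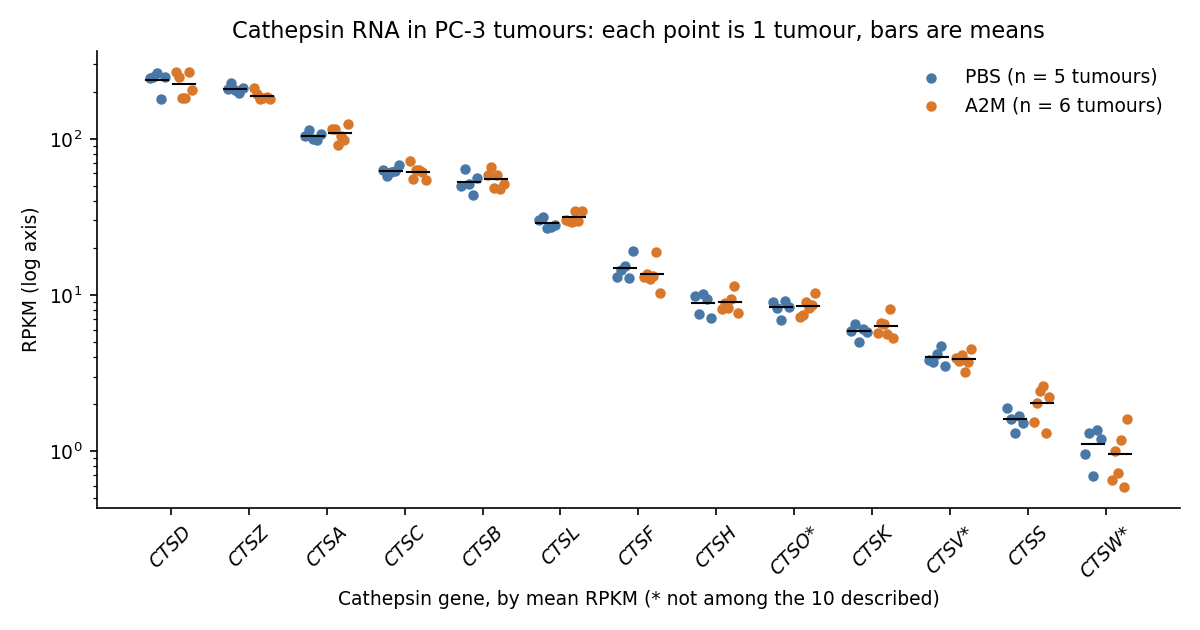
RPKM (log axis) of the 10 cathepsins and of CTSO, CTSV and CTSW (marked *) in each tumour, with PBS tumours in blue, A2M* tumours (axis label A2M) in orange and group means as black bars. The ranges of both groups overlap in every gene, and mean RPKM runs from 231 for CTSD to 1.833 for CTSS among the 10.

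The place of CTSC in this order rested on its annotated length. The deposited RPKM of CTSC divide by about 7623 bases, 4.08 times the 1870 exon bases of its canonical transcript in GENCODE, whereas the ratio of both lengths lay between 0.692 and 1.23 for the other 9 genes. Per kilobase of canonical transcript, an alternative chosen after the data were seen, CTSC came first with 252.5 RPM per kilobase (222.7 to 292.9), ahead of CTSD with 238.6 (184.8 to 278.3), and their ranges overlapped. The same alternative placed CTSK (6.769) above CTSH (6.173) and left the order of the others unchanged. In counts, which carry no length, CTSC gave 25.8% of the reads of the 10 genes, CTSD 26.8% and CTSZ 16.3%. The share of summed RPKM given above for CTSD and CTSZ therefore holds for the deposited lengths only. Of the 5 other human cathepsin genes, CTSO (8.424 RPKM) and CTSV (3.94), a close relative of CTSL, lay in the range of the lower members. CTSW, known from cytotoxic lymphocytes, was at 1.025 RPKM. CTSE had between 0 and 4 counts, and CTSG, a serine proteinase of neutrophils, had 0 counts in every tumour, which allows up to 0.0836 to 0.177 CPM (3 counts per library, counting error only).

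Sequence shared with other GENCODE genes may limit 2 of these levels more than the others. CTSD (chr11:1773982-1785803 on GRCh37, minus strand) shares 1277 of its 2055 canonical exon bases with ENSG00000250644, a protein-coding gene on the same strand, and 61.3% of its runs of 50 bases occur in another gene's transcripts. For CTSA (chr20:44518783-44527588, plus strand) 308 of 1809 such runs were shared, and 200 of its exon bases overlap PLTP on the opposite strand. The shared part was 2.8% of runs for CTSB, 0.997% for CTSL and 0.643% for CTSS, and the canonical transcripts of CTSC, CTSF, CTSH, CTSK and CTSZ held no such run. Another transcript of CTSZ shares runs with CTSB, and how this bears on the values of either gene was not tested. The values of CTSD and CTSA may therefore be less certain than those of CTSZ (chr20:57560741-57583293, minus strand). The counts were made per RefSeq gene, and whether reads were shared or lost in them was not tested. CTSL and CTSV, the nearest pair in the family, shared no run of 50 bases.

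The libraries held between 16958533 and 35874381 reads counted on genes, and 16630 genes passed the filter and were tested with edgeR's quasi-likelihood test on TMM-normalized counts. No gene passed the Benjamini-Hochberg adjusted threshold of 0.01 (0% of those tested), while 7.08% had an unadjusted p under 0.05. The labels give separate tumours but not the mice they came from, so p-values measure the spread between these tumours. The 6 markers of PC-3 cells (the epithelial KRT8, KRT18, KRT19 and EPCAM, the mesenchymal VIM and the secreted microprotein MSMP) were high in every tumour, with a summed level of 8458 to 10720 RPM (reads per 1e+06 counted reads) in PBS and 7865 to 9028 RPM in A2M* tumours. MSMP gave most of this sum, with a log2 fold change of −0.25 (edgeR, unadjusted p = 0.0115, adjusted p = 0.640). The prostate marker KLK3 had 0 counts throughout and KLK2 at most 1, and PC-3 cells are known to lack both.

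No cathepsin passed the test between the A2M* and the PBS group. The smallest adjusted p among the 10 was 0.640 (edgeR), that of CTSZ. At an unadjusted p under 0.05, 1 of 10 members stood out, against the 7.08% of all genes named above, and it was lower in A2M* tumours, as were 3.53% of all genes at that p, while 0 members and 3.55% of all genes were higher. The log2 fold change (A2M* minus PBS) was above 0 in 5 members and below 0 in 5, beside 50.6% of all genes below 0, and under scaling by library size alone 4 members were below 0. Its median was −0.0074 over the members and −0.0021 over all genes tested. In no member did the ranges of both groups stand apart, which was so for 0.71% of all genes. Fewer cells of a type and less RNA per cell cannot be told apart in these bulk samples. Summed over the 10 genes, cathepsin reads made up 0.186% ± 0.012 of counts in PBS tumours (SD, n = 5) and 0.181% ± 0.014 in A2M* tumours (SD, n = 6).

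CTSZ had the smallest p. Its level, as CPM (counts per 1e+06 with TMM normalization), was 309.4, 355.1, 317.8, 293.4 and 323.8 in the 5 PBS tumours. In the 6 A2M* tumours it was 314.8, 291.7, 264.3, 264.9, 272.6 and 270.2. All but PC3_tumor_128 of the A2M* group lay below every PBS tumour, and PC3_tumor_128 lay among them. The means were 319.9 ± 22.8 (SD, n = 5) and 279.8 ± 19.9 CPM (SD, n = 6). On the log2 scale the difference was −0.19 with a standard error of 0.069 and a 95% interval of −0.34 to −0.045. As a ratio this is 0.875, with an interval of 0.789 to 0.969. The unadjusted p was 0.0144 and the adjusted p 0.640 in edgeR's quasi-likelihood test across all genes. The direction was the same in all 19 alternative analyses, with unadjusted p between 0.00494 and 0.0491 in these model fits. The 6 PC-3 markers also had log2 fold changes below 0, between −0.25 and −0.072, none past the threshold, and their part in the value of CTSZ was not tested.

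CTSD, the most abundant member by RPKM, spread widely between tumours. It was at 514.2, 552.8, 582.5, 377.5 and 541.6 CPM in the 5 PBS tumours. In the 6 A2M* tumours it was at 561.0, 524.5, 379.2, 375.6, 558.1 and 439.3. PC3_tumor_126, PC3_tumor_130 and PC3_tumor_131 had nearly the same low value, 1 of them a control, and the groups overlapped over almost the whole range. The log2 fold change was −0.12 with an interval of −0.41 to 0.17 (edgeR, unadjusted p = 0.391, adjusted p = 0.906). CTSA, the serine carboxypeptidase, was at 243.9 ± 17.9 CPM in PBS (SD, n = 5) and 244.9 ± 31.2 in A2M* tumours (SD, n = 6). The ratio of CTSA was 1.00 with an interval of 0.879 to 1.15.

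CTSB and CTSC, the abundant cysteine proteinases beside CTSZ, had close means as well. CTSB averaged 215.4 ± 35.5 CPM in PBS and 216.6 ± 29.4 in A2M* tumours, with a range of 172.1 to 266.4 in PBS that enclosed the A2M* range of 185.9 to 261.7. Its ratio was 1.01 with an interval of 0.847 to 1.19. For CTSC the means were 483.8 ± 26.4 and 462.8 ± 45.5 CPM. The A2M* group held both the highest CTSC value, 544.2 in PC3_tumor_128, and the lowest, 418.4 in PC3_tumor_112. The log2 fold change of CTSC was −0.064 with an interval of −0.23 to 0.099. CTSL, with 50.25 ± 3.70 CPM in PBS and 53.13 ± 4.38 in A2M* tumours, had a log2 fold change of 0.081 and an interval of −0.075 to 0.24. Its highest values were in A2M* tumours PC3_tumor_112 (59.48) and PC3_tumor_131 (57.75), and the others lay within the PBS range of 46.65 to 56.2.

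**Figure D2:**
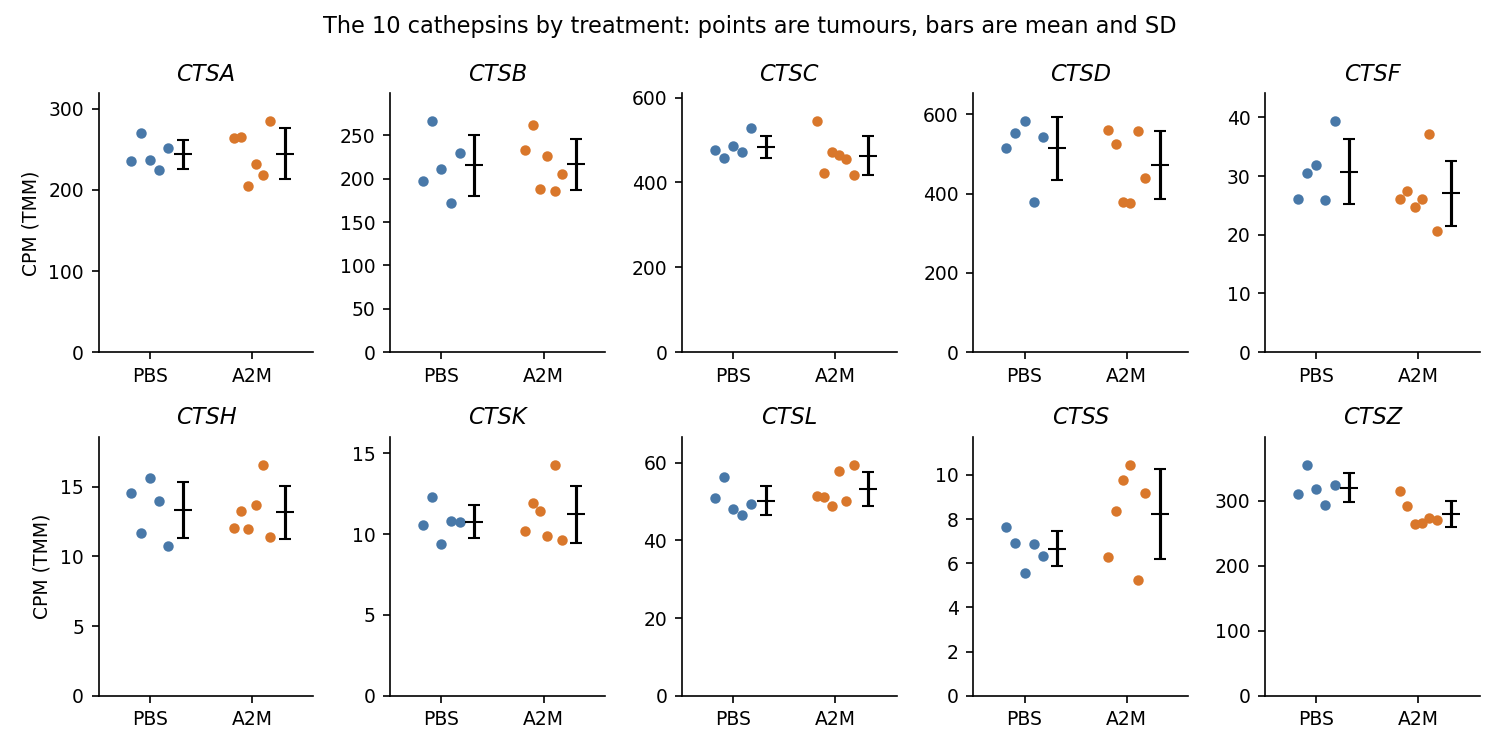
CPM (TMM-normalized, axes from 0) of each cathepsin by treatment group, with 1 point per tumour and mean ± SD beside the points, for 5 PBS tumours (blue) and 6 A2M* tumours (orange, axis label A2M). The points of both groups overlap in every panel, least in that of CTSZ, where 5 A2M* tumours lie below the lowest PBS value of 293.4.

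CTSS had the largest log2 fold change of the family. It was at 7.658, 6.896, 5.553, 6.872 and 6.339 CPM in the 5 PBS tumours. In the 6 A2M* tumours it was at 6.281, 8.381, 9.789, 10.46, 5.248 and 9.163. In the A2M* group 4 tumours were above every PBS tumour, while PC3_tumor_132 was below all of them and PC3_tumor_128 within their range. The means were 6.66 ± 0.779 and 8.22 ± 2.05 CPM, and the log2 fold change was 0.30 with a standard error of 0.166 and an interval of −0.052 to 0.66 (edgeR, unadjusted p = 0.0882, adjusted p = 0.764). The SD of the treated group was the larger one. Without PC3_tumor_132 the log2 fold change was 0.40 with an unadjusted p of 0.0119, and without PC3_tumor_128 it was 0.37 with a p of 0.0413 (edgeR).

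CTSS and CTSK are known as genes of macrophages and osteoclasts, so the markers of these cells were read beside them. Of 12 macrophage markers listed, TYROBP had 0 counts in all tumours, AIF1 at most 1 and CD163 at most 2. The summed macrophage markers were at 33.8 to 42.35 RPM in PBS and 34.96 to 43.79 RPM in A2M* tumours, and without CD68 and LYZ at 5.493 to 8.513 and 6.291 to 9.337 RPM. Of 3 osteoclast markers, OCSTAMP had 0 counts, CALCR at most 1 and ACP5 between 12 and 36 counts. ACP5 had a log2 fold change of −0.075 (edgeR, unadjusted p = 0.770). The summed ranges overlapped between the groups. Of the 8 macrophage markers tested, 6 had a log2 fold change above 0 and 2 below, with a median of 0.25 beside the 0.30 of CTSS. These were 0.56 for EMR1, 0.36 for FCER1G, 0.32 for CD14, 0.26 for ITGAM, 0.23 for CSF1R and 0.10 for LYZ, against −0.083 for CD68 and −0.44 for PTPRC, and none passed the threshold. The part of host cells in the level of CTSS was not tested.

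CTSF, CTSH and CTSK completed the members. CTSF, a cysteine proteinase with a long propeptide, was at 26.09, 30.55, 31.93, 25.85 and 39.34 CPM in the 5 PBS tumours. In the 6 A2M* tumours it was at 26.08, 27.50, 24.74, 26.08, 37.17 and 20.70. PC3_tumor_112 was the lowest, and PC3_tumor_127 and PC3_tumor_132, 1 of each group, were the highest. Its log2 fold change was −0.19 with an interval of −0.49 to 0.12 (edgeR, unadjusted p = 0.204, adjusted p = 0.843), and without PC3_tumor_132 it was −0.30 (edgeR, unadjusted p = 0.0252). CTSH averaged 13.33 ± 2.02 and 13.15 ± 1.89 CPM, and CTSK 10.78 ± 1.03 and 11.23 ± 1.75 CPM, in PBS and A2M* tumours. Their log2 fold changes, −0.021 and 0.056, had intervals of −0.28 to 0.24 and −0.19 to 0.30. For both genes PC3_tumor_132 held the highest value of all, 16.58 CPM of CTSH and 14.30 of CTSK. The fibroblast markers, read because CTSK degrades collagen, summed to 319.9 to 665.3 RPM in PBS and 320.6 to 922.3 RPM in A2M* tumours, mostly COL1A1, while DCN had at most 3 counts and LUM at most 5. All 5 fibroblast markers tested had log2 fold changes above 0, with a median of 0.37 and the highest, 0.73, in COL1A2 (edgeR, unadjusted p = 0.0459, adjusted p = 0.699). Of the endothelial markers tested, 1 was above 0 and 3 below, with a median of −0.087. The lowest of them was VWF, at −0.42 (edgeR, unadjusted p = 0.0247, adjusted p = 0.648). CD8A, the only lymphocyte marker tested, had 0.24 (edgeR, unadjusted p = 0.267). The part of these host cells in the values of the cathepsins was not tested.

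**Figure D3:**
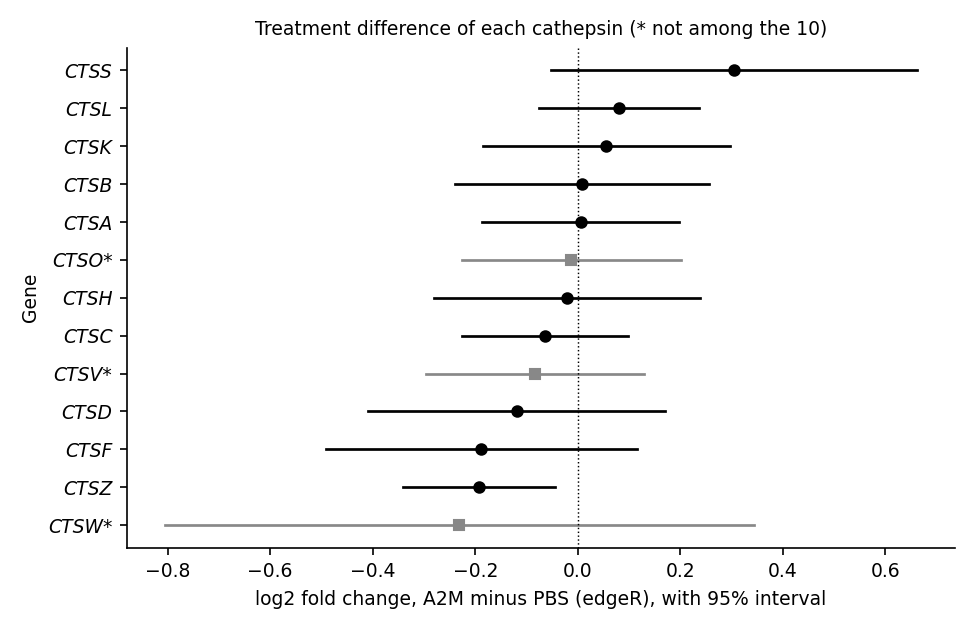
The log2 fold change (A2M* minus PBS, edgeR) of the 10 cathepsins (black circles) and of CTSO, CTSV and CTSW (grey squares, marked *), with 95% intervals as lines. Only the interval of CTSZ, −0.34 to −0.045, leaves out 0, and that of CTSS reaches from −0.052 to 0.66.

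At this number of tumours, the size of the intervals set what could be seen. The 95% intervals of the 10 members reached at most a ratio of 1.58 upward (CTSS) and 0.711 downward (CTSF). For CTSA, CTSB, CTSC, CTSH, CTSK and CTSL the intervals included a ratio of 1, and none reached beyond 1.23 upward or 0.824 downward.

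The members were also compared with each other between tumours. Over the 45 pairs of members, Pearson correlations of log2 CPM were computed over the 11 tumours with the group means removed, and tested by two-sided exact permutation of tumours inside each group. No pair passed an adjusted p of 0.05, and 6 had an unadjusted p under it. Pairs of other genes were not tested in this way, so whether 6 is many for these tumours is not known. The coefficient r was above 0 in 25 pairs and below 0 in 20, with a median of 0.060. CTSB and CTSZ had the smallest p, with r = 0.797 (exact permutation p = 0.00767, adjusted p = 0.242) and Spearman's rho = 0.809 (exact permutation p = 0.00762, adjusted p = 0.171). Without the 2 tumours farthest from the median of CTSB, r was 0.69. CTSA and CTSB had r = 0.699 (exact permutation p = 0.0186, adjusted p = 0.242) and rho = 0.736 (exact permutation p = 0.0156, adjusted p = 0.184), and r was 0.918 without the 2 tumours farthest from the median of CTSA. For CTSD and CTSZ r was 0.726 (exact permutation p = 0.0215, adjusted p = 0.242), rho was 0.836 (exact permutation p = 0.00455, adjusted p = 0.171), and r was 0.587 without 2 tumours. CTSA and CTSZ had r = 0.637 (exact permutation p = 0.0442, adjusted p = 0.331) and rho = 0.627 (exact permutation p = 0.0605, adjusted p = 0.34), with r = 0.892 without 2 tumours. Without PC3_tumor_112, the pairs of CTSA with CTSB and of CTSA with CTSZ passed the adjusted threshold.

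The lowest coefficient was that of CTSD and CTSS. Their r was −0.725 (exact permutation p = 0.0186, adjusted p = 0.242) and rho −0.736 (exact permutation p = 0.0221, adjusted p = 0.184), and r was −0.837 without the 2 tumours farthest from the median of CTSD. PC3_tumor_130 and PC3_tumor_131, low in CTSD, were those highest in CTSS. PC3_tumor_126, a PBS tumour as low in CTSD, had 6.872 CPM of CTSS, among the values of the other PBS tumours. For CTSF and CTSS r was −0.661 (exact permutation p = 0.0322, adjusted p = 0.29) and rho −0.618 (exact permutation p = 0.0494, adjusted p = 0.317), but r without PC3_tumor_132 and PC3_tumor_127 was −0.407. These coefficients share library, depth and base composition between genes.

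**Figure D4:**
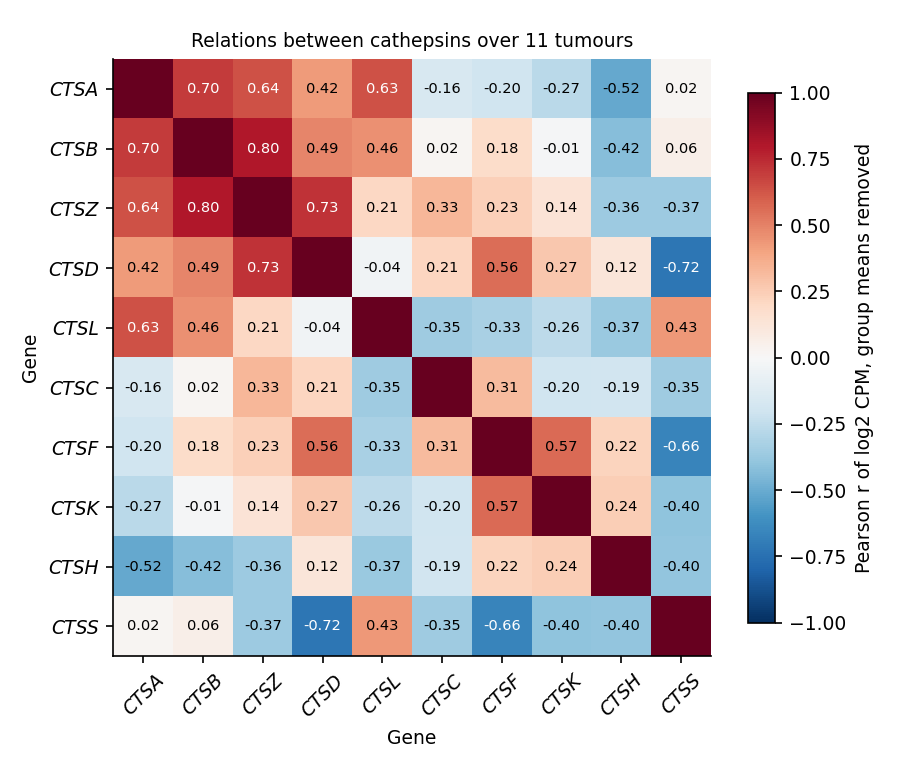
Pearson r between the log2 CPM of each pair of the 10 cathepsins over 11 tumours, with group means removed, from blue (−1) to red (1). The order of the genes was set by hand and places CTSA, CTSB, CTSZ and CTSD together. Their coefficients run from 0.422 for CTSA and CTSD to 0.797 for CTSB and CTSZ. CTSL, outside this block, has 0.633 with CTSA, 0.459 with CTSB and −0.036 with CTSD. CTSS has negative coefficients with CTSD and CTSF, and no pair passed an adjusted p of 0.05.

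The genes most like CTSD, CTSZ and CTSA, the 3 highest members by deposited RPKM, were searched among 11082 genes by the same r, as a description over 11 tumours. For CTSD they were TPRA1 (r = 0.989), AGPAT2 (0.986) and CPZ (0.986), and for CTSZ TUBA4A (0.969), PANK4 (0.955) and SURF4 (0.942). For CTSA they were COL4A2 (0.96), ARHGAP10 (0.952) and S100A11 (0.939). None of these 9 genes is a cathepsin.

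Promoters were read for the motif CACGTG, the core of the element bound by TFEB, a transcription factor of lysosomal genes. RefSeq sequences on GRCh38.p14 were matched for 7 of the 10 members. In the 250 bases before the start of the gene, the motif was in 3 of these 7, CTSD, CTSA and CTSF, and in 6.34% of all 35116 promoters. The longer TCACGTGA, which holds the shorter motif, was in CTSA, and in 0.854% of all promoters. The full element, with a further G before and C after these bases, was in 0 of the 7 members and in 0.308% of all promoters. All 3 motifs read the same on either strand. The last 60 bases before the start are shown for the 3 highest members by deposited RPKM, 5′ to 3′ on the strand of the gene, with the motif in capitals.
CTSD: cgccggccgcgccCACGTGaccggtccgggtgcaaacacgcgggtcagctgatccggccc
CTSA: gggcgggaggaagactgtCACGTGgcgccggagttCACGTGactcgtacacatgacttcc
CTSZ: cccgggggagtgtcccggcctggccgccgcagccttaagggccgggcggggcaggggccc
The motif begins 47 bases before the start in CTSD, and 42 and 25 bases before it in CTSA. The promoter of CTSZ holds none in its 250 bases. The windows lie at chr11:1763928-1763987 (CTSD, minus strand), chr20:45891275-45891334 (CTSA, plus strand) and chr20:59007255-59007314 (CTSZ, minus strand). Such a match is a description of letters and was not tested for binding.

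Genes that act with the cathepsins did not pass the test either. Of 59 genes in 8 lists, 52 were tested, 0 passed the adjusted threshold and 2 had an unadjusted p under 0.05, beside the 7.08% of all genes. The log2 fold change was above 0 in 21 and below 0 in 31, with a median of −0.018. Among the other cathepsins, CTSO, CTSV and CTSW had log2 fold changes of −0.013, −0.083 and −0.23, with unadjusted p (edgeR) of 0.900, 0.418 and 0.403. CTSE and CTSG were too low to test.

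The inhibitors were the list with the lowest median, −0.15, with 6 of 8 tested genes below 0. CSTB, the cytosolic cystatin that inhibits CTSB, CTSL and CTSH, was highest, at 267.6 RPKM, above the mean level of every cathepsin, and its log2 fold change was −0.29 with an interval of −0.65 to 0.065 (edgeR, unadjusted p = 0.101, adjusted p = 0.772). CST5, a secreted cystatin, had −0.75 with an interval of −1.35 to −0.15 (edgeR, unadjusted p = 0.0181, adjusted p = 0.642), on only 6 to 27 counts per tumour. CSTA, another cytosolic inhibitor, had 0.14 (edgeR, unadjusted p = 0.458). The 4 inhibitors not tested had at most 11 counts.

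Of the genes for activation and sorting, 3 of 8 were above 0 and the median was −0.055. SORL1, a sorting receptor, had the highest level, 34.11 RPKM, and a log2 fold change of −0.28 (edgeR, unadjusted p = 0.0702, adjusted p = 0.739). M6PR, the smaller of the mannose-6-phosphate receptors that carry cathepsins to the lysosome, had 0.12 (edgeR, unadjusted p = 0.148). PSAP, the saposin precursor and a substrate of CTSD, was listed beside CTSA and was at 418.5 RPKM. Its log2 fold change was −0.017 (edgeR, unadjusted p = 0.835). NEU1, the sialidase that CTSA protects, had a log2 fold change of 0.056 (edgeR, unadjusted p = 0.416).

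Other lysosomal hydrolases had a median of −0.0065, with 5 of 13 above 0. GAA, acid alpha-glucosidase, was highest, with 93.88 RPKM and a log2 fold change of −0.12. GLA, alpha-galactosidase A, had 0.14 (edgeR, unadjusted p = 0.0804). Of the membrane genes, CD63 was at 379.5 RPKM (log2 fold change −0.094, edgeR unadjusted p = 0.220). SLC38A9, the arginine sensor of the lysosomal membrane, had 0.17 (edgeR, unadjusted p = 0.0495, adjusted p = 0.701). The proton pump that acidifies the lysosome had 4 of 6 genes above 0. Its catalytic subunit ATP6V1A had a log2 fold change of 0.091 (edgeR, unadjusted p = 0.216), and its most abundant gene ATP6AP1, at 95.75 RPKM, had −0.061 (edgeR, unadjusted p = 0.412). The regulators TFEB, TFE3 and MITF had 0.10, 0.046 and 0.049, and TFE3, the most abundant, had the smallest p of the list, 0.525 (edgeR, unadjusted).

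**Figure D5:**
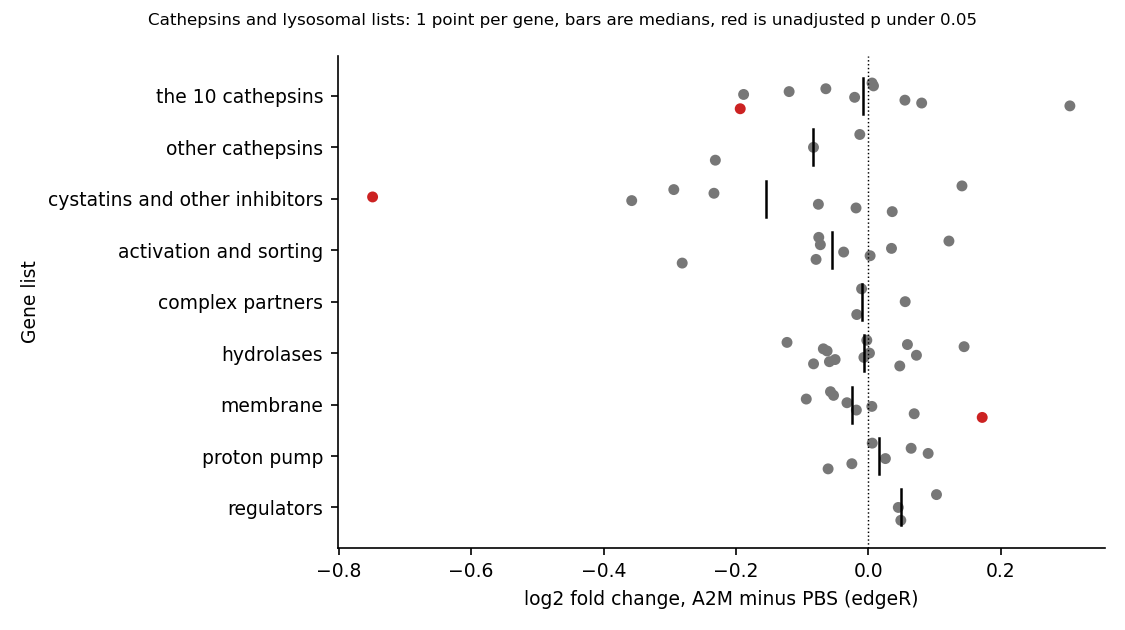
The log2 fold change (A2M* minus PBS, edgeR) of every tested gene of the cathepsins and of 8 lysosomal lists, 1 point per gene, with medians as black bars and genes of unadjusted p under 0.05 in red. The cathepsin median of −0.0074 lies near 0, and the red points are CTSZ, CST5 and SLC38A9.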

How the data were processed

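RNA of 11 PC-3 tumours (5 PBS, 6 A2M*) had been prepared with the unstranded TruSeq RNA kit v2. The authors sorted reads by species with xenome, mapped human reads to hg19 with TopHat2 and deposited featureCounts counts per RefSeq gene without normalization. They also deposited RPM, which are counts per 1e+06 counted reads, and RPKM, in which the authors divided RPM by exon length. The submitters' processing notes name bcl2fastq 1.8.4. The versions of xenome and featureCounts and the strand setting are not given in the sources used here. As the libraries were unstranded, reads of overlapping genes on opposite strands cannot be told apart. Mouse reads were not analysed here.

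Tumours were grouped by labelled treatment, without covariates. Low genes were removed with filterByExpr, TMM factors (0.958 to 1.03) scaled the counts, and edgeR 4.0.16 (R 4.3.3) gave quasi-likelihood p-values, with Benjamini-Hochberg adjustment over 16630 genes and a threshold of 0.01. Intervals are 95% intervals from the standard error. The common biological coefficient of variation was 13.9%. The steps were tested on simulated counts in which 200 of the tested genes were changed. The adjusted threshold recovered 0% of them at a fold of 1.25, 40% at 1.5 and 82.5% at 2. The changed genes were drawn at random from all levels, so these rates are not those of the cathepsins. Totals of 16958533 to 35874381 counts set the counting error, and 3 counts equal 0.0836 to 0.177 CPM. Log2 CPM for correlations used a prior count of 2, and 86400 permutations within groups gave a smallest p of 1.2e-05.

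Named genes are all human cathepsins, from each lysosomal list the gene with the highest RPKM and those with the smallest unadjusted p in each direction, and for the 3 members of highest RPKM the 3 genes of highest r. Further inhibitors and regulators named and the markers fall outside this rule. The members and the lists were chosen with earlier results of these data known. Alternatives were RLE or library-size scaling, omission of the filter, a minimum of 10 counts per tumour, DESeq2 1.42.0, limma-voom (limma 3.58.1), limma on log2(RPM + 0.1) and log2(RPM + 1), and each tumour left out. The values of 1 gene that the rule names are not reported here. Positions are from GENCODE on GRCh37, and promoters from RefSeq (GRCh38.p14). Figures were drawn with matplotlib 3.10.9.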

Additional observations from a re-analysis of the deposited data

How the results depend on the processing

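Over 19 alternatives, the log2 fold changes of the 10 cathepsins gave 190 values, of which 169 kept their sign. The 21 that turned it belong to CTSA, CTSB, CTSH and CTSK, whose main values lie within 0.056 of 0. CTSH was at 0.024 with library size only and at 0.027 and 0.025 in limma on log2(RPM + 0.1) and log2(RPM + 1), and CTSA at −0.0014 in limma-voom. With each tumour left out, CTSA ranged from −0.040 to 0.055, CTSB from −0.063 to 0.096, CTSH from −0.097 to 0.043 and CTSK from −0.026 to 0.11, CTSK turning only without PC3_tumor_132. CTSZ stayed between −0.23 and −0.15. No alternative brought a cathepsin or lysosomal list gene past the adjusted threshold of 0.01, and over all genes DESeq2 called 1 and the others 0. The number of cathepsins at an unadjusted p under 0.05 was between 1 and 3 with a tumour left out, 2 without PC3_tumor_128 (CTSS and CTSZ) and 3 without PC3_tumor_132 (CTSF, CTSS and CTSZ). For the lysosomal lists this number was 2, and 1 with RLE factors, without a filter or with at least 10 counts, 3 with library size only and in both fits of limma on log2 RPM, and between 1 and 6 with a tumour left out, 6 without PC3_tumor_132. Between 0 and 2 cathepsin pairs passed the adjusted p with a tumour left out, 2 without PC3_tumor_112. The cause was not tested. Library size only moved the median of all genes from −0.0021 to 0.042 and that of the cathepsins to 0.036. No paired analysis was possible because the groups share no tumour numbers. CST5, at 6 to 27 counts, is limited by depth, and 1 A2M* tumour had 16958533 counts, the lowest total.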
